A study of Homo sapiens with 4 samples.

Results

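The genes described here encode the nuclear-encoded subunits of the mitochondrial respiratory chain. Members were the genes whose annotated symbol begins with NDUFA, NDUFB, NDUFC, NDUFS, NDUFV, UQCR, COX4, COX5, COX6, COX7, COX8, ATP5F1, ATP5M or ATP5P, or is SDHA, SDHB, SDHC or SDHD, each read by the brightest probe set that names that gene alone. The rule found 88 of the 18417 genes with such a probe set. Of the 88, 78 are subunits, 34 of complex I, 3 of complex II, 7 of complex III, 17 of complex IV and 17 of complex V. A further 7 are NDUFAF genes, whose products help to build complex I and do not stay in it, and 3 are a pair of pseudogenes and a noncoding transcript that share a prefix.

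RNA came from MCF12A, a line of human mammary epithelial cells that is not tumorigenic, grown as monolayers and read on 4 Affymetrix Human Gene 1.0 ST arrays. One culture was exposed to ethanol at 25 mM for 1 week and had its own unexposed culture, control 1. Another was exposed to acetaldehyde at 2.5 mM for 1 week and had its own unexposed culture, control 2. The medium of all 4 held cholera toxin, insulin, hydrocortisone and epidermal growth factor, with horse serum. With 1 array per group, no value below has a replicate error, and a difference describes a pair of cultures.

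The respiratory chain passes electrons from food to oxygen across the inner mitochondrial membrane. Complex I takes them from NADH and complex II from succinate, ubiquinone carries them to complex III, cytochrome c carries them to complex IV, and the proton gradient built on the way drives complex V, the ATP synthase. Most subunits are encoded in the nucleus and are known for a steady level in nearly every cell type, and a small core is encoded by mitochondrial DNA. Oxidation of ethanol to acetaldehyde and of acetaldehyde to acetate produces NADH, which complex I reoxidises when it is inside mitochondria.

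Values are intensities on a linear scale as the authors deposited them, and differences are log2 of an exposed array over its own control. A gene was kept where its highest value on the 4 arrays reached an intensity of 155, the median over all single-gene probe sets, which left 10373 genes, 78 members and 71 subunits. Among subunits these were all 34 of complex I, all 3 of complex II, 6 of complex III, 12 of complex IV and 16 of complex V. On all 4 arrays 72 members were at or above that level. Just outside the limit of 7.28 were UQCRB and NDUFAF6, both with a highest log2 value of 7.25. Just inside it were NDUFB1 at 7.31, ATP5MC3 at 7.33, NDUFAF5 at 7.37 and UQCRH at 7.50. The 10 members not kept were UQCRB, COX4I2, COX6B2, COX7A1, COX7B2, COX8C, ATP5MGL, NDUFAF6, UQCRBP1 and NDUFV1-DT.

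Median intensity over 33297 probe sets was 90.2 with ethanol, 92.2 in control 1, 113.0 with acetaldehyde and 113.8 in control 2. The sorted log2 values lay 0.0398 apart on average between ethanol and control 1 and 0.0268 between acetaldehyde and control 2, and 0.270 to 0.285 apart between pairs, so arrays of different pairs are set side by side only as stated values. The epithelial keratin KRT5 was bright throughout, with intensities of 9757 with ethanol, 11172 in control 1, 10366 with acetaldehyde and 12169 in control 2. All 4 listed basal markers and all 5 listed luminal or general epithelial markers with a single-gene probe set were kept, as were 2 of 5 fibroblast, 0 of 3 endothelial, 1 of 4 leukocyte and 0 of 3 adipocyte markers.

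With ethanol, 56 of the 78 kept members lay above control 1 (71.8%), against 57.8% of all kept genes. Their median difference was 0.06, close to the 0.05 of all kept genes. The 34 subunits of complex I stood at a median of 0.20, with 26 above control 1. The 37 kept subunits of the other complexes had a median of 0.04, with 24 above. The interquartile range of all kept genes spanned -0.13 to 0.23, so the complex I median lay inside it. No test of complex I against the other complexes was made. With control 2 in place of control 1 the complex I median was 0.04. On RNA from whole cultures, a change in how many cells hold a transcript and a change in its level in each cell cannot be told apart.

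By complex, the ethanol medians were 0.20 for complex I, 0.12 for complex II, -0.11 for complex III, 0.05 for complex IV and 0.04 for complex V. Above control 1 were 26 of 34, 3 of 3, 2 of 6, 8 of 12 and 11 of 16 subunits in the same order. Of all kept genes 57.8% were above control 1. Quantile normalization of all 4 arrays together gave a complex I median of 0.13 with 22 of 34 above, and a complex V median of -0.0048 with 6 of 16 above. Centring on the median of all kept genes gave 22 of 34 for complex I, 5 of 12 for complex IV (median -0.0057) and 4 of 16 for complex V (median -0.0142), so the signs of complexes IV and V depended on the scaling. The 6 kept complex I assembly factors had a median of 0.39 with 5 above control 1, but NDUFAF1 and NDUFAF5 passed the filter only through the ethanol array. Among the 4 assembly factors at or above the limit on all arrays the median was 0.18 with 3 above, beside 0.20 for complex I under the same filter. With acetaldehyde the medians of the 5 complexes lay between -0.03 and 0.03 (-0.0058 for complex I and -0.0283 for complex III after quantile normalization, where both turned), and 37 of 71 subunits lay above control 2. That share, and the 41 of 78 members above control 2, compare with 50.7% of all kept genes, whose median difference was 0.00. ATP5MC3 and NDUFB1, both counted as above control 2, passed the filter only through the acetaldehyde array. With each exposure set against the other control, the ethanol medians of complexes II, III and V were -0.23, -0.37 and -0.28, and the acetaldehyde medians of complexes I, II, III and V were 0.19, 0.35, 0.36 and 0.31.

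**Figure D1:**
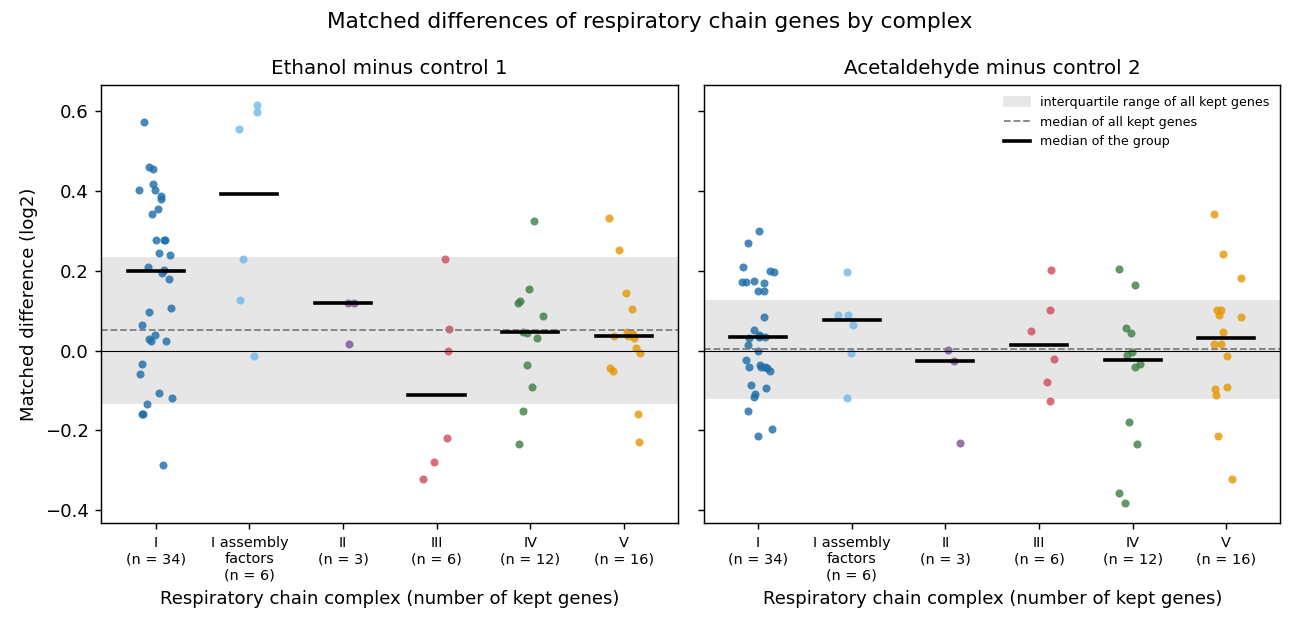
Log2 difference of each kept gene from its own control, by complex, with ethanol (left) and acetaldehyde (right); each point is 1 gene, black bars are group medians, the dashed line is the median of all 10373 kept genes and the grey band their interquartile range. Complex I and its assembly factors have medians of 0.20 and 0.39 with ethanol, where 2 of the 6 assembly factors passed the filter only through the ethanol array, and every complex lies near 0 with acetaldehyde.

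Few members were far from their control. At least 1.5-fold higher with ethanol were 2 members, the assembly factors NDUFAF4 and NDUFAF5, against 5.44% of all kept genes, and 0 members were 1.5-fold lower, against 4.22%. Both fell short of 1.5-fold when all 4 arrays were normalized together by quantiles. With acetaldehyde 0 members were 1.5-fold higher and 0 lower, against 0.742% and 0.974% of all kept genes. Because no subunit reached 1.5-fold, a smaller limit of 25% higher or 20% lower than the control, 0.322 on the log2 scale, was used as well, and its place in the text was chosen after the values had been seen. With ethanol 15 members were at least 25% higher, against 17.1% of all kept genes, and 0 were 20% lower, against 10.5%. The 0 lower became 3 after centring, 12 against the mean of both controls and 25 against control 2. Of the 15, 10 were complex I subunits, 3 were complex I assembly factors, 1 was COX7B of complex IV and 1 was ATP5PD of complex V. NDUFAF5, in both counts, and NDUFAF1, in the second, passed the filter only through the ethanol array. Among members at or above the limit on all 4 arrays, 1 was at least 1.5-fold higher and 13 at least 25% higher. UQCRH, at -0.3218 with ethanol, lay just short of the lower limit. With acetaldehyde 1 member was at least 25% higher, ATP5PF, against 5.45%, and 3 were at least 20% lower, COX5B, COX8A and ATP5F1D, against 5.75%. Set against control 1, 33 members were at least 25% higher and 10 at least 20% lower with acetaldehyde. Ethanol exceeded control 1 by more than the gap between the controls in 16 of 78 members, against 19.4% of all kept genes.

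One fit took both exposures together against their own controls, with the experiment as a block, which left 1 residual degree of freedom. Limma called 0 of 10373 genes at a Benjamini-Hochberg adjusted p under 0.05 (0%), and 1024 had an unadjusted p under 0.05 (9.87%). Among the 78 members 0 were called and 2, NDUFB6 and NDUFA5, had an unadjusted p under 0.05. The lowest adjusted p of any member in limma was 0.495. In that fit NDUFB6 stood 0.34 ± 0.116 (SE) above the controls on the log2 scale and NDUFA5 0.39 ± 0.142.

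Complex I is the largest of the 5 complexes and has an L shape, with a peripheral arm that oxidises NADH in the matrix and an arm in the membrane that pumps protons. Of its 34 measured subunits, 10 were at least 25% higher with ethanol, against 17.1% of all kept genes. These were NDUFA5, NDUFB9, NDUFA2, NDUFAB1, NDUFS3, NDUFB6, NDUFV2, NDUFB3, NDUFA12 and NDUFA8. NDUFA5, an accessory subunit of the peripheral arm, had the largest difference. Its probe set 8142663 read 372 with ethanol against 249.8 in control 1, and 241 with acetaldehyde against 210.4 in control 2, which is 0.57 and 0.20 on the log2 scale. The ethanol array thus held the highest of the 4 values and both exposed arrays exceeded their controls.

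NDUFB9, an accessory subunit of the membrane arm, read 4042 with ethanol and 2937 in control 1 (0.46), and 4589 with acetaldehyde and 4137 in control 2 (0.15). The ethanol value was above its own control and below control 2, by 0.03 on the log2 scale. NDUFA2, an accessory subunit of the NADH-oxidising module, read 859 with ethanol and 626 in control 1 (0.46), and 788 both with acetaldehyde and in control 2. The ethanol value was the highest of the 4, and the difference between the pairs was not tested. NDUFAB1, the mitochondrial acyl carrier protein, which also serves fatty acid and lipoic acid synthesis, read 788 with ethanol and 591 in control 1 (0.42), and 675 with acetaldehyde and 584 in control 2 (0.21).

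NDUFS3, a core subunit of the peripheral arm, read 1861 with ethanol and 1409 in control 1 (0.40), against 1312 with acetaldehyde and 1415 in control 2 (-0.11). Its controls differed by 0.01 on the log2 scale, so control 1 and control 2 nearly coincided. NDUFV2, a core subunit that carries an iron-sulfur cluster next to the NADH site, read 1314 with ethanol and 1005 in control 1 (0.39), and 1115 with acetaldehyde and 988 in control 2 (0.17). A further probe set for NDUFV2 gave 0.43 with ethanol and 0.20 with acetaldehyde. NDUFB6, a membrane arm subunit, read 891 with ethanol and 675 in control 1 (0.40), and 376 with acetaldehyde and 311 in control 2 (0.27). Its controls were 1.12 apart on the log2 scale, control 1 being the brighter, which exceeds both exposure differences.

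The other 3 of the 10 were smaller. NDUFB3, a membrane arm subunit, was at 0.38 with ethanol and 0.17 with acetaldehyde. NDUFA12, an accessory subunit of the peripheral arm, was at 0.36 with ethanol and 0.17 with acetaldehyde, and NDUFA8, another accessory subunit, at 0.34 with ethanol and -0.04 with acetaldehyde. Of the 10, the 7 other than NDUFA2, NDUFS3 and NDUFA8 were also above control 2 with acetaldehyde, by 0.15 to 0.27.

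At the lower end, 8 complex I subunits were below control 1 with ethanol. NDUFS7, the core subunit whose iron-sulfur cluster hands electrons to ubiquinone, was lowest, with 259 with ethanol against 317 in control 1 (-0.29) and 457 with acetaldehyde against 507 in control 2 (-0.15). Both exposed values were under their controls, and the controls were 0.68 apart, more than either difference. NDUFA13, an accessory subunit also known as GRIM-19, was at -0.16 with ethanol and -0.09 with acetaldehyde. NDUFA7 was at -0.16 with ethanol and 0.03 with acetaldehyde, NDUFA10 at -0.13 with ethanol and -0.04 with acetaldehyde, and NDUFB7 at -0.12 with ethanol and -0.21 with acetaldehyde. NDUFC1, a small membrane arm subunit, had the highest complex I difference with acetaldehyde, 407 against 331 in control 2 (0.30), beside 339 with ethanol and 299 in control 1 (0.18). NDUFB7 had the lowest, 404 with acetaldehyde against 469 in control 2.

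**Figure D2:**
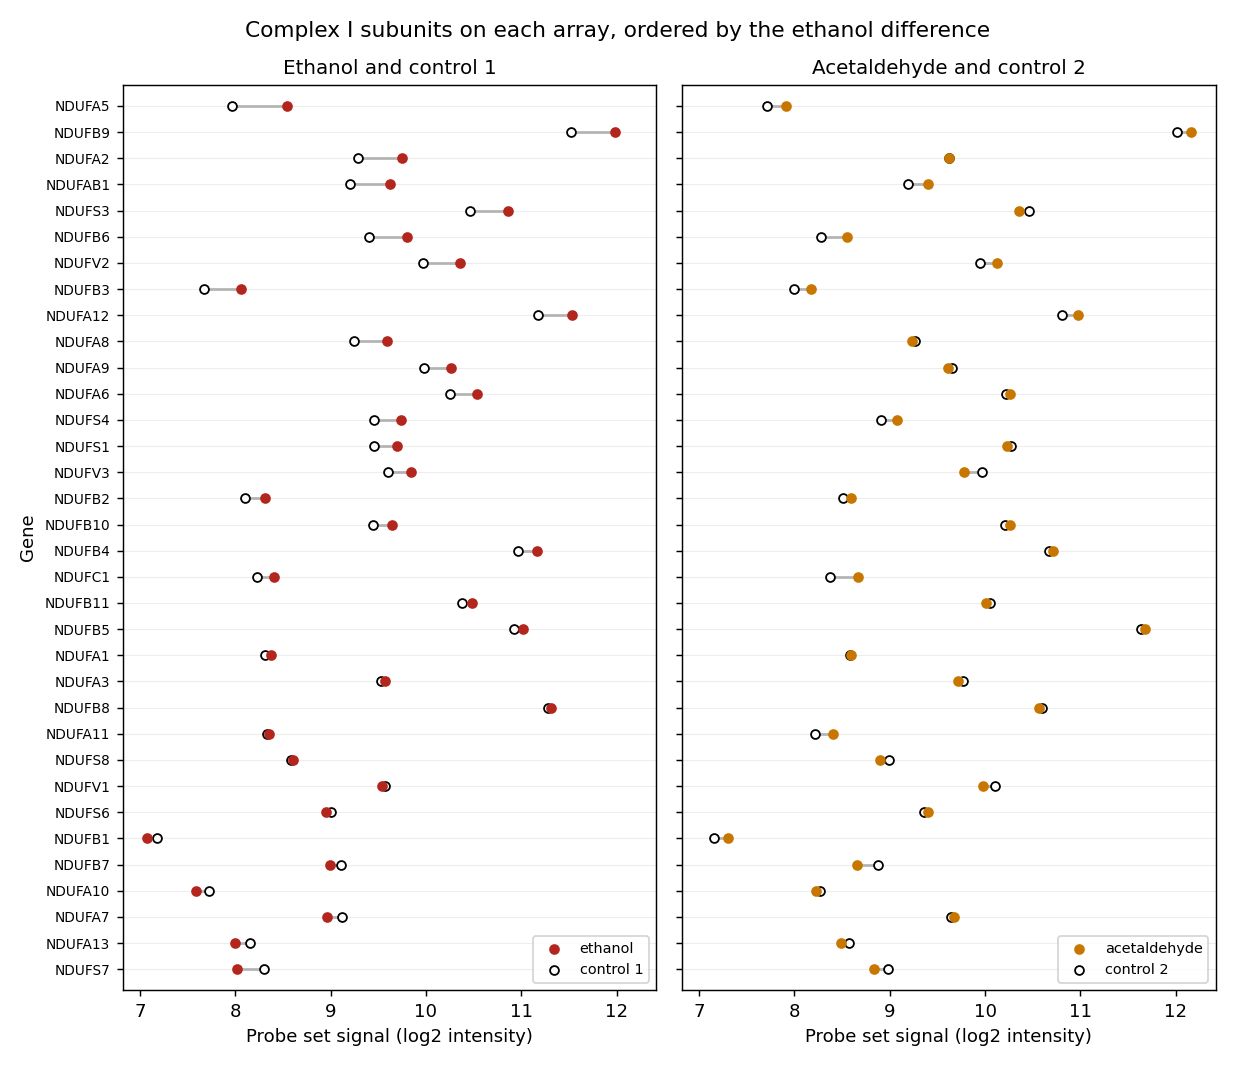
Log2 intensity of the 34 complex I subunits, ethanol with control 1 (left, filled and open circles) and acetaldehyde with control 2 (right), in the order of the ethanol difference; grey bars join an exposed array to its control. NDUFA5 heads the order at 0.57 and NDUFS7 closes it at -0.29; the same order is not kept on the right.

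Core subunits include the carriers of the redox centres, and accessory subunits surround them. Of the 6 kept nuclear core subunits 4 were above control 1 (median 0.13), and of the 28 accessory subunits 22 were above (median 0.20), against 57.8% of all kept genes. By name, the median with ethanol was 0.28 for 13 NDUFA genes, 0.20 for 11 NDUFB, 0.13 for 6 NDUFS and 0.24 for 3 NDUFV. With acetaldehyde the core median was -0.10, with 1 of 6 above control 2, and the accessory median 0.04, with 18 of 28 above, against 50.7% of all kept genes. The core list was drawn up after the values had been seen.

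Of the 8 complex I subunits below control 1, 4 lie on chromosome 19, a grouping made after the values had been seen. The 6 complex I genes on chromosome 19, NDUFA3, NDUFA7, NDUFA11, NDUFA13, NDUFB7 and NDUFS7, had an ethanol median of -0.14 with 2 above control 1. The 28 on other chromosomes had a median of 0.24 with 24 above, against 57.8% of all kept genes. All 752 kept genes of chromosome 19 had a median of -0.04 with ethanol and 301 above control 1. The 9 kept chromosome 19 subunits of all complexes had an ethanol median of -0.16 with 3 above. With acetaldehyde the 752 genes had a median of -0.08 with 208 above control 2, against 50.7% of all kept genes. The 9 subunits had an acetaldehyde median of -0.09 with 3 above. What chromosome 19 genes share on these arrays was not tested. Signal level moved with the result as well, since all kept genes, cut into 3 groups of like size by mean level, had ethanol medians of 0.08 in the brightest, 0.08 in the middle and -0.02 in the lowest group. The 21 complex I genes in the brightest group stood at 0.24, the 11 in the middle group at 0.06 and the 2 in the lowest group at -0.12.

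The complex I assembly factors held 3 of the 4 highest ethanol differences among the kept members. NDUFAF4, which acts with NDUFAF3 early in building the peripheral arm, read 1090.0 with ethanol against 712 in control 1 (0.62), and 635 with acetaldehyde against 637 in control 2 (-0.01). NDUFAF5, which hydroxylates NDUFS7 during assembly, read 166 with ethanol and 109.7 in control 1 (0.60), and 131 with acetaldehyde and 123 in control 2 (0.09). NDUFAF1, a factor of the membrane arm, read 190.0 with ethanol and 129 in control 1 (0.56), and 132 with acetaldehyde and 124 in control 2 (0.09). In each of these 3 the ethanol value was above both controls, and in NDUFAF5 and NDUFAF1 the other 3 values were below the limit of 155. NDUFAF3 was at 0.23 with ethanol and -0.12 with acetaldehyde (-0.70 and 0.81 against the other control), NDUFAF7, a mitochondrial methyltransferase, at 0.13 with ethanol and 0.06 with acetaldehyde, and NDUFAF2 at -0.01 with ethanol and 0.20 with acetaldehyde. NDUFAF6, not kept, read 149 with ethanol against 96.5 in control 1 and 152 with acetaldehyde against 106 in control 2.

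Complex II is succinate dehydrogenase, which is also the citric acid cycle enzyme and is encoded wholly in the nucleus. SDHA, its flavoprotein, read 1645 with ethanol and 1514 in control 1 (0.12), against 2531 with acetaldehyde and 2971 in control 2 (-0.23). Its controls were 0.97 apart on the log2 scale, several times either difference. SDHC, a membrane anchor, read 4868 with ethanol and 4484 in control 1 (0.12), and 5697 with acetaldehyde and 5693 in control 2 (0.00). A dimmer SDHC probe set was at 0.17 with ethanol and 0.18 with acetaldehyde. SDHD, the other anchor, read 1677 with ethanol and 1659 in control 1 (0.02), and 1802 with acetaldehyde and 1833 in control 2 (-0.03). A dimmer SDHD probe set was at -0.06 in both pairs, so its sign with ethanol depends on the probe set. With the mean of each gene's probe sets, 2 of the 3 kept subunits lay above control 1 with ethanol. Whether a probe set also reads near-identical copies of its gene elsewhere in the genome was not tested. SDHB, the iron-sulfur subunit, had no single-gene probe set here and was not analysed.

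Complex III moves electrons from ubiquinol to cytochrome c. With ethanol its kept subunits went both ways. UQCRC1, a core protein facing the matrix, was highest at 0.23 (805 with ethanol, 686 in control 1), and was at -0.08 with acetaldehyde. UQCRH, the hinge protein that binds cytochrome c1, was lowest, with 108 with ethanol against 135 in control 1 (-0.32) and 181 with acetaldehyde against 169 in control 2 (0.10). The ethanol pair of UQCRH lay below the limit of 155, and a shared probe set that also names UQCRHL and another gene was at 0.03 with ethanol and 0.22 with acetaldehyde. UQCR11, a small subunit, read 399 with ethanol and 484 in control 1 (-0.28), and 622 with acetaldehyde and 541 in control 2 (0.20). UQCR10, another small subunit, was at -0.22 with ethanol and -0.02 with acetaldehyde.

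UQCRC2, the brightest kept complex III probe set, was at 0.05 with ethanol and -0.13 with acetaldehyde, and UQCRQ at 0.00 with ethanol and 0.05 with acetaldehyde. UQCRC2 was also the lowest of the complex with acetaldehyde. UQCRB, which helps to form the ubiquinone site, was not kept and read 133 with ethanol, 76.7 in control 1, 152 with acetaldehyde and 126 in control 2. The complex III median of -0.11 with ethanol was 0.00 both without any filter, when UQCRB entered, and among the 5 genes at or above the limit on all 4 arrays. UQCRFS1, the Rieske protein, was not analysed here.

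Complex IV, cytochrome c oxidase, reduces oxygen, and its nuclear subunits surround a core made in mitochondria. With ethanol COX7B, a small subunit needed for assembly, was highest, with 382 against 305 in control 1 (0.33) and 196 with acetaldehyde against 222 in control 2 (-0.18). COX8A, a small membrane subunit, was lowest with ethanol, with 1330.0 against 1563 in control 1 (-0.23). With acetaldehyde it read 1577 against 2021 in control 2 (-0.36). COX8A was thus below its control in both pairs, although with control 1 in place of control 2 its acetaldehyde difference was 0.01.

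COX5B, a zinc-binding subunit on the matrix side, had the lowest acetaldehyde difference of all subunits. It read 3233 with acetaldehyde against 4215 in control 2 (-0.38), and 3720.1 with ethanol against 3422 in control 1 (0.12). The control 2 value was the highest of the 4. COX6B1, a subunit that bridges the dimer, read 1667 with acetaldehyde and 1960.2 in control 2 (-0.23), and was at 0.09 with ethanol. COX7A2 had the highest acetaldehyde difference of the complex, with 1191 against 1034 in control 2 (0.20), and was at -0.09 with ethanol. COX4I1, a regulatory subunit, read 548 with ethanol and 562 in control 1 (-0.04), and 553 with acetaldehyde and 554 in control 2 (0.00). COX6A1, the brightest probe set of the complex, was at 0.03 with ethanol and -0.04 with acetaldehyde, and COX7A2L, which helps to join complexes III and IV, at 0.04 in both pairs.

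Several complex IV subunits exist in a widely expressed form and a tissue-restricted form. Of the widely expressed forms COX4I1, COX6A1, COX6B1, COX7A2, COX7B and COX8A were all kept. Of the restricted forms COX4I2, COX6B2, COX7A1, COX7B2 and COX8C were not, and their intensities ran from 17.4 to 114. COX6A2, the heart and muscle form, was kept, with 152 with ethanol, 169 in control 1, 282 with acetaldehyde and 271 in control 2. ATP5F1EP2, a kept pseudogene of the epsilon subunit of complex V, was at 0.02 with ethanol and -0.12 with acetaldehyde. COX7A1 read 60.5 with ethanol and 98.5 in control 1, both under the limit. COXFA4, formerly named NDUFA4 and so outside the name rule, was at -0.02 with ethanol and 0.07 with acetaldehyde.

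Complex V makes ATP with a catalytic head, a rotor ring in the membrane and a stalk that holds the head still. Of the ATP5F1 genes, ATP5F1B, the catalytic beta subunit, read 7139 with ethanol and 6927 in control 1 (0.04). It read 7759 with acetaldehyde and 8262 in control 2 (-0.09). ATP5F1A, the alpha subunit, was at 0.10 with ethanol and -0.10 with acetaldehyde, and ATP5F1C, the gamma subunit, at 0.14 with ethanol and 0.05 with acetaldehyde. ATP5F1D, the delta subunit, had the lowest acetaldehyde difference of the complex, with 1189 against 1487 in control 2 (-0.32), and read 1227 with ethanol against 1369 in control 1 (-0.16).

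Subunits of the stalk that holds the head still had the highest differences of the complex. ATP5PD, subunit d, read 2679 with ethanol and 2127 in control 1 (0.33), and 2110.2 with acetaldehyde and 1992 in control 2 (0.08). ATP5PF, the coupling factor of the stalk, was the only member at least 25% higher with acetaldehyde, with 455 against 358 in control 2 (0.34), and read 435 with ethanol against 366 in control 1 (0.25). Its controls were 0.03 apart on the log2 scale and both exposed values lay above both. ATP5PO, which ties the stalk to the head, was at -0.04 with ethanol and 0.24 with acetaldehyde, with controls 0.83 apart, and ATP5PB, subunit b, at 0.03 with ethanol and -0.01 with acetaldehyde.

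The 8 kept ATP5M genes of the membrane sector spanned -0.23 to 0.05 with ethanol and -0.21 to 0.18 with acetaldehyde. The c subunit of the rotor ring is encoded by ATP5MC1, ATP5MC2 and ATP5MC3. ATP5MC1 was at 0.04 with ethanol and 0.10 with acetaldehyde, and ATP5MC2 at 0.01 with ethanol and -0.11 with acetaldehyde. ATP5MC3, near the filter limit, was at -0.05 with ethanol and 0.18 with acetaldehyde. It passed the filter only through the acetaldehyde array. ATP5ME, subunit e, was the lowest of the complex with ethanol, with 454 against 532 in control 1 (-0.23) and 702 with acetaldehyde against 813 in control 2 (-0.21). Against control 1 its acetaldehyde difference was 0.40. ATP5MK, a small subunit found with dimers of the synthase, was at 0.04 with ethanol on the probe set used and at -0.06 on another. ATP5MF, ATP5MG and ATP5MJ lay within 0.10 of 0 in both pairs.

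**Figure D3:**
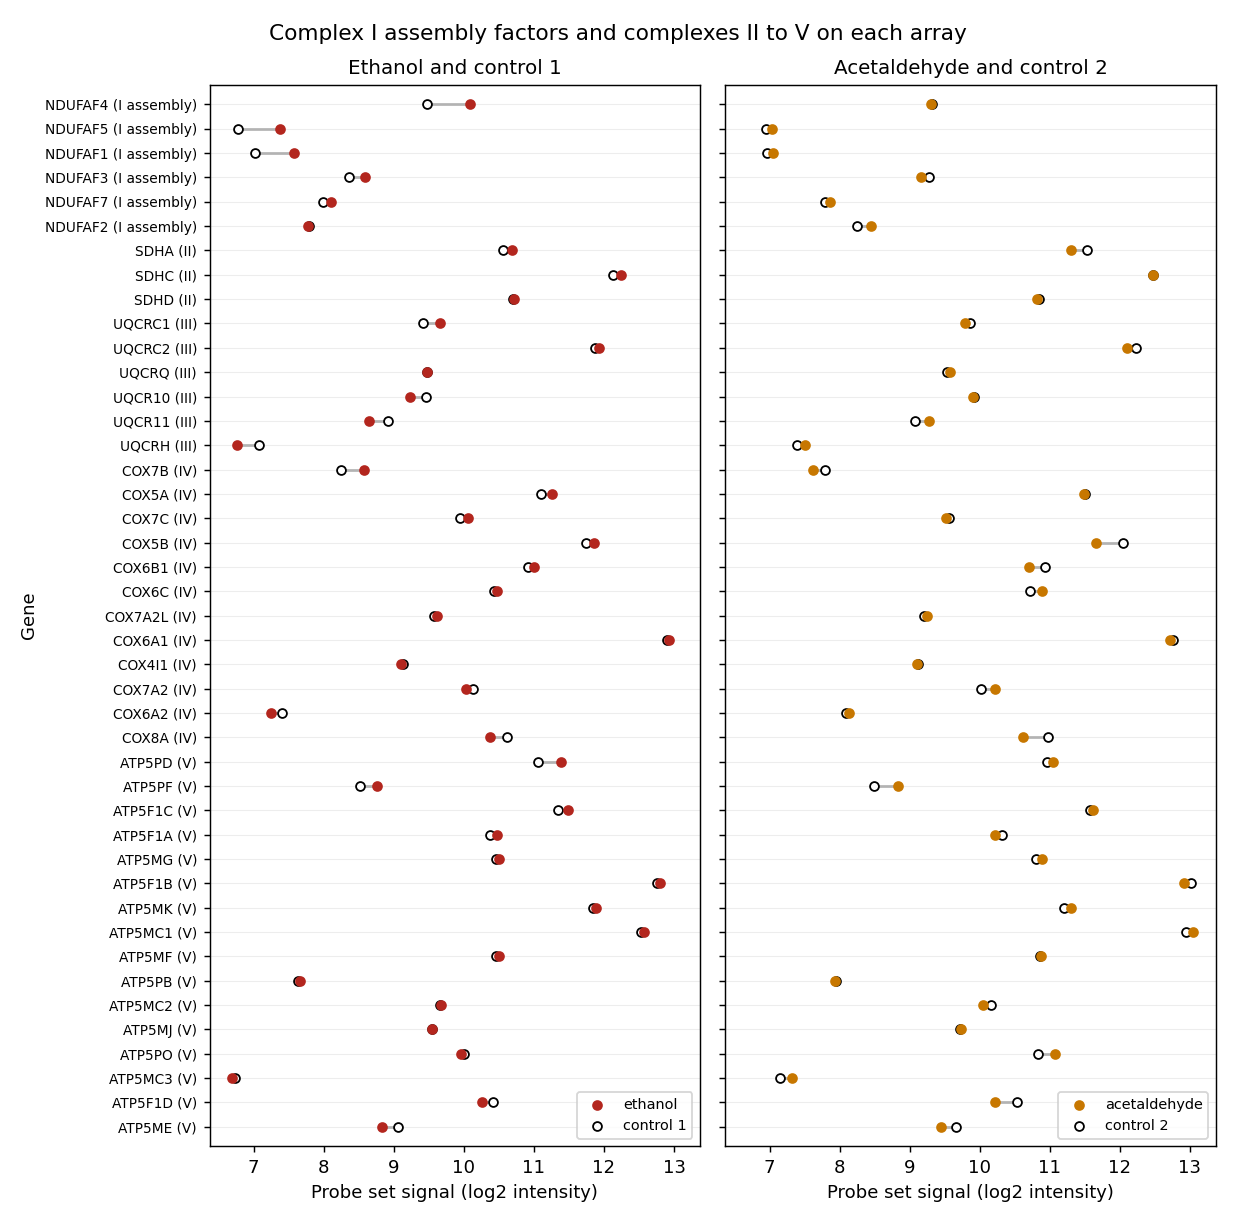
Log2 intensity of the 6 kept complex I assembly factors and the 37 kept subunits of complexes II to V, ethanol with control 1 (left) and acetaldehyde with control 2 (right); filled circles are exposed arrays, open circles their controls. Most pairs of circles nearly coincide; NDUFAF4, NDUFAF5 and NDUFAF1 with ethanol and COX5B and COX8A with acetaldehyde are the widest apart.

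Set side by side, the pairs share no array. Above their own control in both pairs were 29 of the 78 members, against 3670 of all 10373 kept genes. Subunits with opposite signs and at least 0.10 on either side included NDUFS3 (0.40 with ethanol, -0.11 with acetaldehyde), COX5B (0.12 with ethanol, -0.38 with acetaldehyde), COX7B (0.33 with ethanol, -0.18 with acetaldehyde), SDHA (0.12 with ethanol, -0.23 with acetaldehyde), UQCR11 (-0.28 with ethanol, 0.20 with acetaldehyde) and UQCRH (-0.32 with ethanol, 0.10 with acetaldehyde). COX8A and ATP5ME were below their control by more than 0.20 in both pairs, although with acetaldehyde both signs turned against control 1. SDHA was at -0.85 with ethanol and 0.74 with acetaldehyde against the other control, and COX5B at -0.18 with ethanol. NDUFB6, NDUFAB1 and ATP5PF were above their own control by more than 0.20 in both pairs. With acetaldehyde, however, NDUFB6 read 376, below the 675 of control 1.

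**Figure D4:**
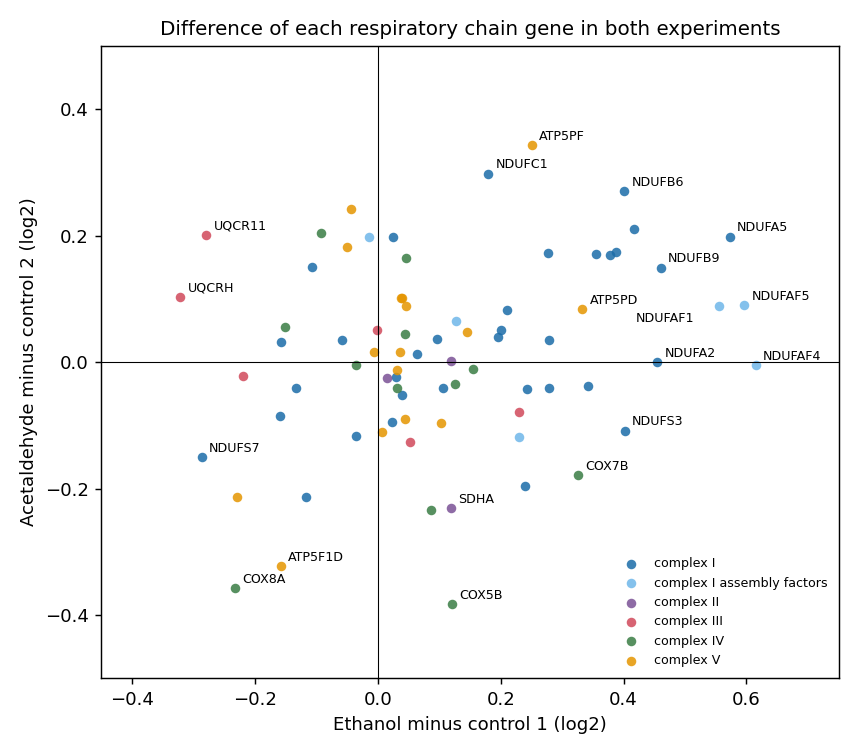
Ethanol difference (horizontal) against acetaldehyde difference (vertical), both log2 and each from its own control, for the 77 kept members of the 5 complexes and the assembly factors; each point is 1 gene. Complex I points spread to the right up to 0.57, while the lowest points on the vertical axis are COX5B at -0.38 and COX8A at -0.36.

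The unexposed cultures differed as well. Control 2 exceeded control 1 by a median of 0.25 over the 78 members, against 0.06 over all kept genes, with 0.20 for complex I, 0.34 for complex II, 0.33 for complex III, 0.00 for complex IV and 0.28 for complex V. NDUFB6, at -1.12, and SDHA, at 0.97, were far apart between the controls. The ethanol difference exceeded the gap between the controls in size in 21 of 78 members, against 32.1% of all kept genes. The acetaldehyde difference did so in 17 members, against 20.7%. Culture and separate normalization of the pairs cannot be told apart in these gaps.

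Promoters are shown for the complex I subunits at the ends of the ethanol order and the subunits at the ends of the acetaldehyde order. Respiratory chain genes are known for promoters bound by NRF1, by ETS factors such as GABP, and by YY1. The 250 bases before the first start that the RefSeq table lists for a gene are printed on the strand of the gene in build GRCh38.p14, and capitals mark matches to the letters GCGCATGCG for NRF1, CCGGAAG for ETS factors and AAGATGGCG for YY1, searched on both strands. For ATP5PF, with 2 starts listed, that start lies 599 bases inside the outer end of the annotated gene, and for the other 3 genes it is the outer end.
NDUFA5, chr7:123601652-123601901, minus strand: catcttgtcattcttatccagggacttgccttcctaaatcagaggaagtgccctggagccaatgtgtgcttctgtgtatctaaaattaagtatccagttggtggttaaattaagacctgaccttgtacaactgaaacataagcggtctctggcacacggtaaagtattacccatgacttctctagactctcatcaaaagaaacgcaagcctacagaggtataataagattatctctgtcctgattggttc
NDUFS7, chr19:1383657-1383906, plus strand: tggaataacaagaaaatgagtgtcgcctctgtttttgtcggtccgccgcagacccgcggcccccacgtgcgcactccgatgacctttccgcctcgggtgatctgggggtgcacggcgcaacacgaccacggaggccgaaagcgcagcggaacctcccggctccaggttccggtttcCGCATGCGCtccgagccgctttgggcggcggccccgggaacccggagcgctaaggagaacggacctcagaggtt
ATP5PF, chr21:25735055-25735304, minus strand: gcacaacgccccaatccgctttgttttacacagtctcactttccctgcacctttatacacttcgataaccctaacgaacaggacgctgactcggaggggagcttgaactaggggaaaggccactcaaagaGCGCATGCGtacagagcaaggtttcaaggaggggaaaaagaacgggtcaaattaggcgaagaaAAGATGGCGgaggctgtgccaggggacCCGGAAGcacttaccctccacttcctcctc
COX5B, chr2:97645812-97646061, plus strand: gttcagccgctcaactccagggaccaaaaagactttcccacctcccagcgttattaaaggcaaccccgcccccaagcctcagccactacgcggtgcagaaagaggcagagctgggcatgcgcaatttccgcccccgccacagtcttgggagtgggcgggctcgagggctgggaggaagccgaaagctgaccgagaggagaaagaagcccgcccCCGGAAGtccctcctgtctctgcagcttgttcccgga

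NDUFS7 had the NRF1 letters on the opposite strand, beginning 74 bases before the start. It also had YY1 letters outside the printed bases, within the window up to 50 bases after the start used for the shares below. ATP5PF had NRF1 letters at 120, YY1 letters at 57 and ETS letters at 30 bases before its start, and COX5B had ETS letters at 37. In NDUFA5, with 3 starts listed, none of these letters were in the window of the first start, and its other starts were not searched. Searched over 250 bases before to 50 after the start, any of the 3 motifs occurred in 30 of the 63 kept subunits with a RefSeq promoter (47.6%), against 25.6% of 8392 kept genes and 13.7% of all 27305 promoters. For NRF1 the shares were 15.9% of kept subunits, 3.69% of kept genes and 2.10% of all promoters. For ETS they were 30.2%, 19.7% and 10.7%, and for YY1 11.1%, 4.36% and 1.85%, in the same order. Of the 9 complex I genes at least 25% higher with ethanol that have a promoter here, 2 held a motif, as did 11 of the 23 other complex I genes. A match is a run of letters, not a measured site.

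Genes of the same pathway outside the name rule were read from 5 lists. Other chain genes, such as cytochrome c and ubiquinone synthesis enzymes, had a median of 0.10 with ethanol, with 11 of 15 kept genes above control 1, against 57.8% of all kept genes, and -0.01 with acetaldehyde. ETFDH, which feeds electrons from fatty acid oxidation to ubiquinone, read 215 with ethanol and 332 in control 1 (-0.63), against 172 with acetaldehyde and 178 in control 2 (-0.05). PDSS2, of ubiquinone synthesis, was at 0.49 with ethanol and 0.33 with acetaldehyde. It is among the genes above control 1 and passed the filter only through the ethanol array. CYCS, cytochrome c, read 629.6 with acetaldehyde and 474 in control 2 (0.41), and 827 with ethanol and 689 in control 1 (0.26). Against the other control the ethanol difference of ETFDH was 0.27 and the acetaldehyde difference of CYCS -0.13.

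Assembly factors of other names had a median of 0.10 with ethanol, with 24 of 35 above control 1, against 57.8% of all kept genes, and 0.04 with acetaldehyde. TMEM126B, of complex I assembly, was at 0.53 with ethanol and 0.12 with acetaldehyde. COA4, of complex IV assembly, was at 0.42 with ethanol and 0.20 with acetaldehyde. TMEM126B passed the filter only through the ethanol array, and it enters the counts above control 1 and at least 25% higher. HIGD2A, of complex IV and supercomplex assembly, was at -0.03 with ethanol and -0.44 with acetaldehyde. TMEM70, which assists the ATP synthase, was at 0.12 with ethanol and 0.42 with acetaldehyde. At least 25% higher with ethanol were 7 of the 35, against 17.1% of all kept genes, and 0 were 20% lower, against 10.5%. Against the other control the ethanol difference of COA4 was -0.11 and the acetaldehyde difference of TMEM70 -0.20.

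Regulators of mitochondrial biogenesis had medians of 0.12 with ethanol and 0.06 with acetaldehyde over 14 kept genes. PPARGC1A, a coactivator of respiratory genes, read 108 with ethanol and 86.1 in control 1 (0.33), and 264 with acetaldehyde and 556 in control 2 (-1.08). Its controls were 2.69 apart on the log2 scale, and with the other control in place both of its signs turned. POLG2, an accessory subunit of the mitochondrial DNA polymerase, was at 0.74 with ethanol and 0.16 with acetaldehyde, TFB2M, of mitochondrial transcription, at 0.40 with ethanol and 0.17 with acetaldehyde, and TFB1M, a methyltransferase of mitochondrial ribosomal RNA, at -0.04 with ethanol and 0.34 with acetaldehyde. Against control 2 the ethanol difference of TFB2M was -0.31. The NRF1 gene itself was under the filter limit, at 147 with ethanol and 144 in control 1.

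Pyruvate dehydrogenase and citric acid cycle genes had medians of 0.10 with ethanol and -0.05 with acetaldehyde over 15 kept genes, with 9 above control 1 with ethanol, against 57.8% of all kept genes, and 3 above control 2 with acetaldehyde, against 50.7%. SUCLG2, of succinyl-CoA synthetase, was at 0.36 with ethanol and -0.07 with acetaldehyde, and DLAT, of pyruvate dehydrogenase, at 0.35 with ethanol and -0.05 with acetaldehyde. DLD, the dehydrogenase shared by these complexes, was at 0.14 with ethanol and 0.27 with acetaldehyde, and IDH3G, of isocitrate dehydrogenase, at 0.11 with ethanol and -0.19 with acetaldehyde. Membrane, import and antioxidant genes had medians of 0.16 with ethanol and 0.02 with acetaldehyde over 17 kept genes. SOD2, mitochondrial superoxide dismutase, read 1154 with ethanol and 722 in control 1 (0.68), and 2518 with acetaldehyde and 2718 in control 2 (-0.11). The chaperonin gene HSPE1 was at 0.53 with ethanol and 0.13 with acetaldehyde, the channel VDAC1 at 0.31 with ethanol and -0.22 with acetaldehyde, and the ADP/ATP carrier SLC25A4 at 0.05 with ethanol and 0.19 with acetaldehyde. Against control 2 the ethanol differences of SOD2 and SUCLG2 were -1.24 and -0.33. None of the 13 subunits encoded by mitochondrial DNA had a single-gene probe set under the symbols searched, and they were not analysed here.

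Markers of the cells moved beside these values. With ethanol KRT8 was at 0.75, KRT18 at 0.63 and EPCAM at 0.70, whereas KRT19 was at -0.15 and CDH1 at -0.32. Of the basal markers LAMB3, a laminin chain, was at 1.35 with ethanol and 0.59 with acetaldehyde, KRT14 at -0.66 and -0.95, CDH3 at 0.54 and -0.04, and KRT5 at -0.20 and -0.23 in the same order. With acetaldehyde KRT19 was at -0.54 and CDH1 at -0.42. KRT19 read 127 with acetaldehyde and 184 in control 2, and passed the filter only through control 2. It enters the count of markers kept and the medians that follow. The 5 luminal or general epithelial markers had a median of 0.63 with ethanol and 0.12 with acetaldehyde, and the 4 basal markers one of 0.17 with ethanol and -0.13 with acetaldehyde. Of the non-epithelial markers kept, COL1A1 was at -0.25 with ethanol and -0.14 with acetaldehyde, and CD14 at 0.60 with ethanol and -0.61 with acetaldehyde. DCN was at -0.01 with ethanol and 0.08 with acetaldehyde. Its ethanol pair read 34.6 with ethanol and 34.8 in control 1, far below the filter limit. PTPRC read 10.3 to 15.9 on all arrays. Against the other control KRT14 was at 1.02 and CDH1 at 1.01 with ethanol, and EPCAM at -0.87, KRT19 at 0.30 and COL1A1 at 0.43 with acetaldehyde. The part of these markers in the values of the respiratory chain genes was not tested.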

How the data were processed

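RNA from 4 MCF12A cultures was hybridised to 1 array each, and groups and pairs were taken from the sample labels. Each deposited value is the intensity of a probe set on a linear scale, from 3.13 to 22858 in the authors' table, and the submitters' processing notes name RMA (background correction, quantile normalization and probe summary) without a version. The distributions differ between the pairs, so the pairs may have been normalized separately. The tests had been planned for log2 values, so the logarithm was taken without an offset. The deposited values held 0 columns of other samples. Of 33297 probe sets, 19460 had 1 symbol in the platform annotation; probe sets with several or none were left out, and a gene with several took the one with the highest mean. RefSeq for GRCh38.p14 gave RNA classes, chromosomes and promoters.

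Matched differences have no test. Limma 3.58.1 in R 4.3.3 (lmFit and eBayes, two-sided, Benjamini-Hochberg at 0.05 over all kept genes) compared exposed with control arrays with the experiment as a block, which leaves 1 residual degree of freedom and takes the difference between the exposures as its error; it was tested on simulated data. The labels name separate cultures and no more. A p-value of this blocked fit is set against how far the exposures differ from each other, which may be technical. Arrays have no read depth, and their number limits the precision.

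The members and lists were chosen with earlier results of these data known. Named are, for each complex and exposure, the highest, lowest and brightest kept genes, members 1.5-fold apart, the SDH genes, the isoform pairs and the 2 largest differences of each list; other genes, the 25% and 20% limits, the core and chromosome groups, the count against the gap between the controls and the promoters shown were chosen after values were seen. Alternatives were the normalization, centring, probe set, control, filter and fold. Figures were drawn with matplotlib 3.10.9.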

Additional observations from a re-analysis of the deposited data

Results flagged for a closer look

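The ethanol and acetaldehyde differences had opposite signs in the medians of 3 complexes, and the difference between the pairs was not tested. Ethanol minus acetaldehyde was 0.1437 for complex II, -0.1243 for complex III and 0.0686 for complex IV, beside median gaps of control 2 over control 1 of 0.34 for complex II, 0.33 for complex III and 0.00 for complex IV. The ethanol median of complex IV was -0.0057 after centring, which has the sign of its acetaldehyde median. Among single genes with opposite signs of at least 0.10 in each pair, ethanol exceeded acetaldehyde by 0.51 for NDUFS3, 0.44 for NDUFV3, 0.35 for NDUFAF3, 0.35 for SDHA, 0.50 for COX5B and 0.50 for COX7B. The value was -0.26 for NDUFB1, -0.48 for UQCR11 and -0.42 for UQCRH. NDUFB1 passed the filter only through the acetaldehyde array. With 1 array per group none of these was tested.

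Probe sets that name a respiratory chain gene together with another gene entered no comparison, and 3 of them were over 25% above control 1 with ethanol. The probe set of NDUFC2 and its read-through partner was at 0.38, and one that names the NDUFC2-KCTD14 read-through was at 0.96. The probe set of NDUFS5, which names 4 genes, was at 0.43. With acetaldehyde they were at -0.14, 0.02 and 0.12 in that order. Which of the named genes gave the signal was not tested.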

How the results depend on the processing

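A value without a test was taken as moved at 0.1 or more on the log2 scale and a count at more than 1.5 times, limits set after the values were seen because the design gives no replicate spread. Of 84 alternative medians, over the 5 complexes and the assembly factors, 63 stayed within these limits, and 13 turned sign, 3 of the 12 with the other control, 4 with the mean of both, 3 after quantile normalization, 2 after centring and 1 with all 4 arrays at the limit; of 84 counts above the own control, 65 stayed; of 630 values of single genes, 419 stayed and 99 turned sign, 50 of them with the other control and 34 with the mean of both. With each exposure set against the other control, the ethanol medians were 0.0434 for complex I, -0.2257 for complex II, -0.368 for complex III and -0.2802 for complex V, and the acetaldehyde medians 0.1924, 0.3455, 0.3628 and 0.3079 for the same complexes; complexes II and V with ethanol and complex II with acetaldehyde turned sign. With the mean of both controls the ethanol medians were 0.0947 for complex I, -0.0566 for complex II, -0.2405 for complex III, -0.0277 for complex IV and -0.1255 for complex V, and the acetaldehyde medians 0.1375, 0.1733, 0.1764, -0.1275 and 0.1411 for complexes I to V; complexes II, IV and V with ethanol and complex II with acetaldehyde turned sign. The complex III ethanol median was -0.0011 with no filter and with all 4 arrays at the limit.

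The 2 members at least 1.5-fold higher with ethanol became 0 after quantile normalization of all 4 arrays, 0 after centring, 10 with the other control, 4 with no filter, 1 with all 4 arrays at the limit, 15 at the 25% limit and 0 at 2-fold. The 0 lower became 12 with the other control, 1 with the mean of both and 1 with no filter. With acetaldehyde the 0 higher became 10 with the other control, 1 with the mean of both and 1 at the 25% limit, and the 0 lower became 3 with the other control and 3 at the 20% limit. The 15 members at least 25% higher with ethanol ranged from 10 to 19, and the 0 at least 20% lower from 0 to 25. With acetaldehyde the 1 higher ranged from 1 to 33 and the 3 lower from 3 to 10. The 16 beyond the gap between the controls with ethanol ranged from 13 to 19. Limma called 0 members and 0 genes without the experiment as a block (85 at an unadjusted p under 0.05), after quantile normalization (996) and with no filter (1949 of 18417 genes).

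Single-gene alternatives covered only the genes named by the rule stated above, which are the named genes meant here. Other genes in the text were not run. Among those, NDUFB6 and NDUFA12 with acetaldehyde, at 376 and 2011, lay below control 1, at 675 and 2318. Of named genes at least 0.10 from their own control, 17 turned with ethanol and 21 with acetaldehyde against the other experiment's control. Among those at least 25% higher or 20% lower, ethanol differences turned for NDUFB9 (-0.0334), COA4 (-0.106), ETFDH (0.2691), SUCLG2 (-0.3311), TFB2M (-0.3066), PPARGC1A (-2.3593), SOD2 (-1.2359) and KRT14 (1.0169), and acetaldehyde differences for COX8A (0.0133), CYCS (-0.1291), TMEM70 (-0.1961), PPARGC1A (1.6144), EPCAM (-0.8669) and KRT19 (0.2951). Of the other named genes at least 0.10 from their own control, those that turned to over 0.39 in size were, with ethanol, CDH1 (1.0088), NDUFAF3 (-0.6981), SDHA (-0.8529) and VDAC1 (-0.4611), and with acetaldehyde ATP5ME (0.3984), COL1A1 (0.4271), COX4I2 (0.7125), COX6B2 (0.4094), NDUFAF3 (0.8091), NDUFS7 (0.5301), SDHA (0.7412), SOD2 (1.8012) and VDAC1 (0.5505). With the mean of both controls, 10 turned with ethanol and 14 with acetaldehyde, among them PPARGC1A (-1.0132), SOD2 (-0.2801) and KRT14 (0.1784) with ethanol and PPARGC1A (0.2684) and EPCAM (-0.2597) with acetaldehyde. These alternatives set arrays of different pairs against each other; the cause was not tested. Signal near background limits UQCRH, UQCRB, ATP5MC3, NDUFB1, NDUFAF1, NDUFAF5 and KRT19, and DCN in the ethanol pair.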
